A study of Homo sapiens with 8 samples.

Results

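The 10 genes described here are the receptors, ligands and nuclear effectors through which neighbouring progenitor cells signal by the Notch pathway. They are the receptors NOTCH1, NOTCH2 and NOTCH3, the ligands DLL1, DLL3 and JAG1, and the transcriptional repressors HES1, HES4, HES5 and HEY1. They were taken by gene symbol from a table of 17504 genes, in which all 10 were found. Bulk RNA came from day 30 brain organoids of IMR90-4, an established human induced pluripotent line. Compared were 3 libraries with the genotype label FABP7 knockdown (cell line FKD) and 3 control libraries with the genotype label WT (cell line FCT). FABP7 is the brain fatty acid binding protein of radial glia, and the series title places the comparison in the study of the radial glial scaffold in human cortical development. Each group came from 1 derived line, so FABP7 loss and any other difference of the 2 lines cannot be told apart. How FABP7 was lowered is not given in the sources used here. Whether replicates were separate cultures is not stated in the labels, so p-values measure the spread of these libraries, which may be technical.

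In the Notch pathway a ligand on one cell binds a receptor on its neighbour, and proteases then release the receptor's intracellular domain. That domain enters the nucleus, joins the DNA binding protein RBPJ and switches on HES and HEY genes, whose products repress the proneural genes that drive neurogenesis. In the developing cortex the pathway is known for keeping radial glia as progenitors while their neighbours become neurons, and in mouse Fabp7 is itself a Notch target in radial glia.

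The sequences below are the promoters of the HES genes from RefSeq on GRCh38.p14, shown because HES5 differed between the groups while HES1 and HES4 did not pass the test. Each runs 5′ to 3′ on the strand of its gene, from 250 bases before the annotated start to 50 after it. Capitals mark TGGGAA, read TTCCCA on the other strand, the core of the RBPJ site, and TGTGAA, read TTCACA on the other strand, a related core. HES5 is at chr1:2530214-2530513 on the minus strand, HES1 at chr3:194135898-194136197 on the plus strand and HES4 at chr1:1000048-1000347 on the minus strand.
HES5: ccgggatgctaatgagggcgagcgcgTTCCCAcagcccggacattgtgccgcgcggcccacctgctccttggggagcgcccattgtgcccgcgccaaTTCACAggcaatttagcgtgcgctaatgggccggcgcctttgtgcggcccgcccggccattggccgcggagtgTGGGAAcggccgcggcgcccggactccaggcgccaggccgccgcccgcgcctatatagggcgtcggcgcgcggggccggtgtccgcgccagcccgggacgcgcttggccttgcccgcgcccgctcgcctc
HES1: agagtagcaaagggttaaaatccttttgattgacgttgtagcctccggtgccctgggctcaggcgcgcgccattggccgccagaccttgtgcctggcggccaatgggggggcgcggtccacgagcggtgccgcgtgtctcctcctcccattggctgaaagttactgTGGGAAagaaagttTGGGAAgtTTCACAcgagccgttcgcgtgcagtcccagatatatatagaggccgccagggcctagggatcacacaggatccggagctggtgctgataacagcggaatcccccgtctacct
HES4: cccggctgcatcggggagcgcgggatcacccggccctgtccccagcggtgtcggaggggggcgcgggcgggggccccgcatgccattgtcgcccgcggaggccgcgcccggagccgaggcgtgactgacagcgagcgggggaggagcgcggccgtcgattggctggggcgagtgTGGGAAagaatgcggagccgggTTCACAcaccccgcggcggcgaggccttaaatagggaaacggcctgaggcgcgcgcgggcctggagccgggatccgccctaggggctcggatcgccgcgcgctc
All 3 promoters held both motifs. HES5 had TGGGAA 80 bases before its start and the reverse form 224 bases before it, with TTCACA at 153 bases. HES1 had TGGGAA at 84 and at 70 bases before its start and TTCACA at 62, and HES4 had TGGGAA at 76 and TTCACA at 54. Promoter entries were matched for 7 of the 10 members, and the other 4 of these, NOTCH1, NOTCH2, NOTCH3 and JAG1, held neither motif. DLL1, DLL3 and HEY1 were not matched. Of 35116 promoters of the same length, 24.03% held TGGGAA on either strand, 13.1% held TGTGAA and 3.44% held both. The matches are letters in these windows and were not tested for binding.

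FABP7 itself had 14, 15 and 16 estimated counts in the knockdown libraries and 3123, 2650 and 2850 in the control libraries. Every knockdown library was thus far below every control library. Estimated counts summed to between 15063817 and 15360137 per knockdown library and between 13424954 and 15675880 per control library. For the label of brain organoids, SOX2, the neural progenitor factor, stood at 185 ± 3.66 TPM in knockdown and 140 ± 6.70 TPM in control (SD, n = 3 each), where TPM is a level per transcript length. SOX2 was named after its values were seen and cannot by itself establish the tissue. It was among the 3 of 16 radial glia and progenitor markers that rose, while 7 fell. The series' design text names adipogenic differentiation, which the sample labels do not.

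Of the 10 Notch members, 5 were higher in knockdown organoids, none was lower and 5 did not pass the test. The members that rose were 2 receptors, NOTCH3 and NOTCH1, 2 ligands, JAG1 and DLL1, and 1 effector, HES5. This stood against a broad background: of 13468 genes tested, 51.7% were called by edgeR's quasi-likelihood test at a Benjamini-Hochberg threshold of 0.05, 26.4% higher and 25.3% lower. The share of members called was near that background and is not a result about the pathway as a whole. The median log2 fold change of the members was 0.13, against -0.01 over all genes tested, where fold changes are knockdown minus control. The absolute change of the members had a median of 0.17, against 0.22 over all genes. None of the 10 passed a test against a 1.5-fold change, which 4.69% of all genes passed. Directions shifted with the scaling, since 51.1% of all called genes were higher with TMM, 37.7% on library totals and 20.6% on log2(TPM + 1). On library totals alone 3 members were higher and 3 lower, and on log2(TPM + 1) 3 were higher and 3 lower, scalings that moved the median of all genes to -0.07 and -0.16. HES5, NOTCH3 and JAG1 were the 3 called higher under each of those.

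**Figure D1:**
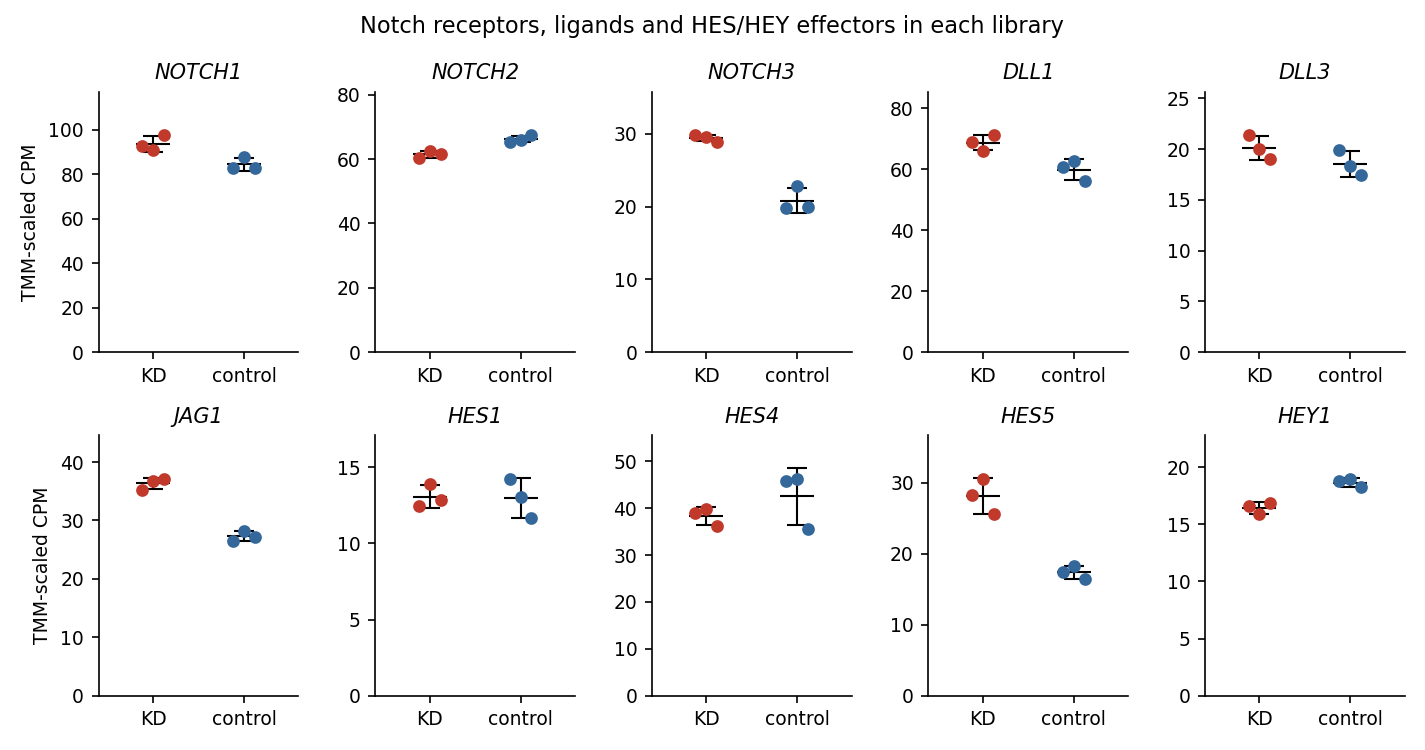
CPM after TMM scaling (y axis, from 0) for each of the 10 genes in the 3 FABP7 knockdown libraries (red, left) and the 3 control libraries (blue, right), with the mean and SD as black bars. The knockdown points of HES5, NOTCH3 and JAG1 lie wholly above the control points, while those of HES1, DLL3 and HES4 overlap them.

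HES5 changed most among the members. It encodes a repressor of neurogenesis that responds to Notch in neural progenitors. It had 28.2, 30.5 and 25.6 CPM (library-scaled counts after TMM) in knockdown replicates 1, 2 and 3, against 17.4, 18.3 and 16.5 CPM in the control replicates. Every knockdown library was above every control library. The log2 fold change was 0.69 ± 0.08 (SE, edgeR adjusted p = 1.85e-07), with a 95% interval of 0.53 to 0.86, and its size lay above that of 90.6% of the genes tested. In the 1.5-fold test it had an adjusted p of 0.407. In bulk RNA, more cells that express a gene and more RNA per cell cannot be told apart.

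HES5 rose within a stretch of chromosome 1 in which its neighbours fell. Of 80 tested genes within 5 Mb of it, 63 were lower in knockdown and 2 higher, with a median log2 fold change of -0.51. HES5 lay above all 80. The window was chosen with earlier results on this stretch known, and with 2 Mb on each side the median of 58 neighbours was -0.49, with HES5 again above each of them. The highest of the neighbours within 5 Mb was the uncharacterised LOC124905421 at 0.65, and the lowest was ESPN, an actin bundling protein, at -1.46.

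**Figure D2:**
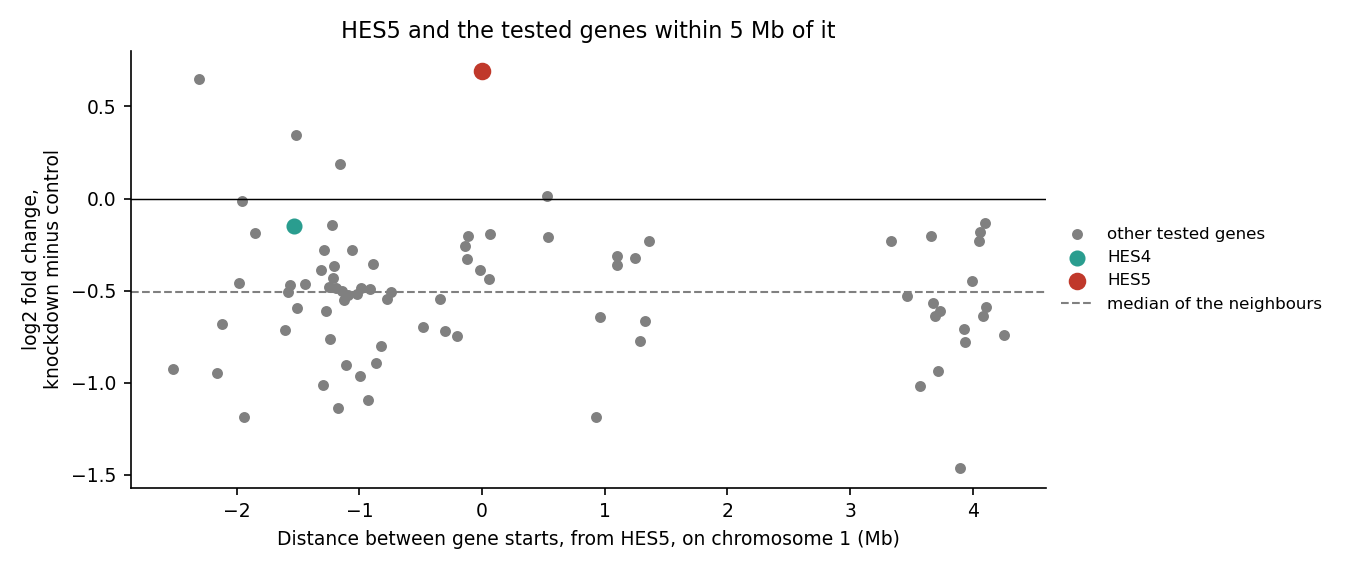
Log2 fold change, knockdown minus control, of HES5 (red), HES4 (green) and the other tested genes (grey) within 5 Mb of HES5 on chromosome 1, by the distance between gene starts in Mb. The dashed line is the neighbours' median of -0.51, and HES5 at 0.69 is the highest point.

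HES4 lies in the same stretch, at chromosome 1, 998964 to 1000097 on GRCh38. It encodes a HES repressor that humans have and mouse lacks. It had 39.0, 39.8 and 36.3 CPM in knockdown libraries, against 45.9, 46.3 and 35.5 CPM in control libraries. The groups overlapped because control replicate 3 was below all 3 knockdown libraries. The log2 fold change was -0.15 ± 0.08 (SE, edgeR adjusted p = 0.152), with a 95% interval of -0.33 to 0.03. Without control replicate 3 it was -0.26 (edgeR adjusted p = 0.000818), and it was called lower on library totals at -0.22 (edgeR adjusted p = 0.0348) and on log2(TPM + 1) at -0.32 (limma adjusted p = 0.00801). The 64 tested genes within 5 Mb of HES4 had a median of -0.49, and 89.1% of them lay below HES4.

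HES1, the repressor whose pulses time the choice between progenitor and neuron, had 12.5, 13.9 and 12.8 CPM in knockdown libraries. In control libraries HES1 had 14.2, 13.04 and 11.7 CPM. The groups overlapped throughout. The log2 fold change was 0.01 ± 0.10 (SE, edgeR adjusted p = 0.95). Its 95% interval of -0.19 to 0.21 does not reach the change of HES5, and its sign turned in 5 of 14 alternatives. As a ratio within each library, chosen after the values were seen, HES5 stood at 2.80, 2.72 and 2.48 times the TPM of HES1 in knockdown libraries and at 1.51, 1.74 and 1.75 times in control libraries. No library factor changes this ratio, and the groups did not overlap.

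HEY1, a relative of the HES repressors whose gene is on chromosome 8, had 16.6, 15.9 and 16.9 CPM in knockdown libraries and 18.8, 19.0 and 18.2 CPM in control libraries. All knockdown libraries lay below all control libraries, yet the gene did not pass the test, with a log2 fold change of -0.18 ± 0.08 (SE, edgeR adjusted p = 0.0604). Groups did not overlap for 7 of the 10 members, 5 higher and 2 lower, against 57.3% of all genes tested, 29.1% higher and 28.2% lower. On library totals alone HEY1 was called lower at -0.25 (edgeR adjusted p = 0.0114), among genes of at least 10 CPM at -0.20 (adjusted p = 0.0324), and on log2(TPM + 1) at -0.34 (limma adjusted p = 0.000543).

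Among the receptors, NOTCH3 rose most. It encodes a receptor of radial glia that is also the main Notch receptor of vascular mural cells. NOTCH3 had 29.8, 29.5 and 28.9 CPM in knockdown libraries, against 19.8, 22.8 and 19.9 CPM in control libraries. The groups did not overlap, and the log2 fold change was 0.50 ± 0.07 (SE, edgeR adjusted p = 5.57e-06). It was 0.26 on log2(TPM + 1), still called. Of 9 mural cell markers, 4 were higher and 3 lower in knockdown, against 3 and 3 on library totals and 2 and 2 of 6 on log2(TPM + 1). Their TPM summed to between 29.3 and 30.8 in knockdown libraries and between 26.1 and 29.9 in control libraries. MCAM, an adhesion molecule that other cells also express, gave most of that sum, at 18.4 ± 0.407 TPM in knockdown and 16.9 ± 0.583 TPM in control (SD, n = 3 each). PDGFRB, the pericyte receptor, was next at 3.95 ± 0.340 TPM in knockdown and 2.79 ± 0.364 TPM in control, and rose by 0.67 on the log2 scale. The 3 lower markers were ACTA2 at -3.00, DES at -1.32 and CSPG4 at -0.83 (log2, with TMM). The proteoglycan CSPG4 was at or under 0.30 TPM in every library. The part of mural cells in the rise of NOTCH3 was not tested.

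NOTCH1, the receptor best known for keeping cortical progenitors undifferentiated, moved little. It had 92.8, 90.8 and 97.6 CPM in knockdown libraries and 83.0, 87.9 and 82.9 CPM in control libraries. The knockdown libraries lay above the control libraries. The log2 fold change of 0.15 ± 0.05 (SE) passed the edgeR test at adjusted p = 0.0133. That call was lost without knockdown replicate 3 (adjusted p = 0.0848), without control replicate 1 (adjusted p = 0.0636) and on library totals (adjusted p = 0.185), and on log2(TPM + 1) the sign turned to -0.04. The RefSeq span of NOTCH1 overlaps LOC124902310 and a microRNA gene.

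NOTCH2 had 60.2, 62.5 and 61.6 CPM in knockdown libraries and 65.4, 65.8 and 67.4 CPM in control libraries. It was below control in each knockdown library but did not pass the test, with a log2 fold change of -0.11 ± 0.05 (SE, edgeR adjusted p = 0.0802). It was called lower on library totals at -0.18 (adjusted p = 0.00611), on log2(TPM + 1) at -0.26 (limma adjusted p = 0.00319) and among genes of at least 10 CPM at -0.13 (adjusted p = 0.0331). NOTCH2 has partial human-specific copies that stimulate Notch signalling, NOTCH2NLA, NOTCH2NLB and NOTCH2NLC, so its level is uncertain where reads were divided between copies. Its estimated counts were not whole in any of the 6 libraries. NOTCH2NLC rose by 0.69, NOTCH2NLB by 0.41 and NOTCH2NLA by 0.29. The calls of NOTCH2NLA and NOTCH2NLB were lost on library totals and on log2(TPM + 1). Summed over NOTCH2 and these copies, the level was between 93.5 and 98.8 CPM in knockdown libraries and between 87.7 and 92.8 CPM in control libraries. NOTCH2 held 62.4 to 64.9% of that sum in knockdown and 71.0 to 74.6% in control. The sum was chosen after the values were seen.

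Among the ligands, JAG1 rose most. It encodes Jagged1, a transmembrane ligand of Notch receptors. JAG1 had 35.3, 36.7 and 37.1 CPM in knockdown libraries, against 26.5, 28.2 and 27.1 CPM in control libraries. The groups stood well apart, with a log2 fold change of 0.42 ± 0.06 (SE, edgeR adjusted p = 1.11e-05), and on log2(TPM + 1) the change was 0.20 (limma adjusted p = 0.0167). The 23 tested genes within 5 Mb of JAG1 had a median of -0.16, and 95.7% of them lay below it.

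DLL1, the Delta ligand that newborn neurons and intermediate progenitors present to radial glia, had 68.8, 66.1 and 71.1 CPM in knockdown libraries. In control libraries DLL1 had 60.6, 62.8 and 56.3 CPM. The groups did not overlap, and the log2 fold change was 0.20 ± 0.05 (SE, edgeR adjusted p = 0.00433). The call was lost on library totals (0.13, adjusted p = 0.055) and on log2(TPM + 1) (0.02, limma adjusted p = 0.784). The RefSeq span of DLL1 overlaps that of FAM120B, whose level moved the other way, at 58.9 ± 1.23 CPM in knockdown and 67.2 ± 0.807 CPM in control (SD, n = 3 each, log2 fold change -0.19, edgeR adjusted p = 0.00325). Counts of DLL1 were not whole in 5 of 6 libraries and no source used here states strand use, so how reads were shared with FAM120B is uncertain.

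DLL3, a divergent Delta protein that does not activate Notch on neighbouring cells and acts within the cell that makes it, had 21.4, 20 and 19.0 CPM in knockdown libraries. Its control values were 19.9, 18.3 and 17.4 CPM. The groups overlapped, and the log2 fold change of 0.12 ± 0.08 (SE) did not pass the edgeR test (adjusted p = 0.247; 95% interval -0.05 to 0.28). On log2(TPM + 1) its sign turned to -0.08.

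**Figure D3:**
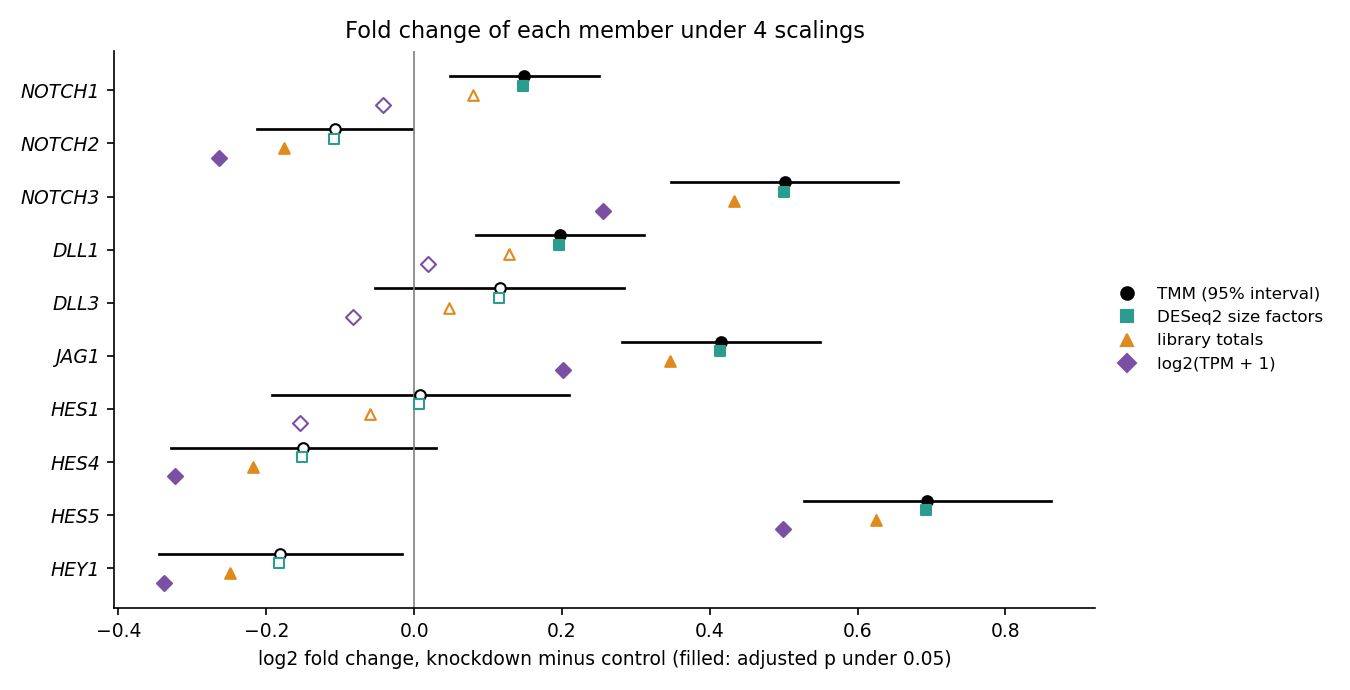
Log2 fold change of each member, knockdown minus control, under TMM factors (black circles with the 95% interval), DESeq2 size factors (green squares), library totals (orange triangles) and log2(TPM + 1) (purple diamonds), filled where the adjusted p is under 0.05. HES5, NOTCH3 and JAG1 are filled and above 0 under all 4, while HEY1, NOTCH2 and HES4 are filled and below 0 on library totals and on log2(TPM + 1).

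Levels per transcript length placed HES4 first in both groups, at 85.8 ± 3.09 TPM in knockdown and 108 ± 13.6 TPM in control (SD, n = 3 each). In knockdown libraries HES5 came next at 36.3 ± 2.91 TPM and lay apart from DLL1 at 26.4 ± 1.12 TPM. In control libraries DLL1 at 26.03 ± 1.37 TPM and HES5 at 25.4 ± 1.22 TPM overlapped. The middle of the order was crowded: NOTCH1, DLL3 and HES1 lay between 12.9 and 15.1 TPM in knockdown libraries, each overlapping the next. In control libraries HES1, DLL3, NOTCH1 and HEY1 lay between 13.9 and 16.5 TPM, each overlapping the next, whereas in knockdown HEY1 at 11.5 ± 0.425 TPM stood below them. JAG1 at 8.54 ± 0.268 TPM lay above NOTCH2 at 7.32 ± 0.129 TPM in knockdown, and that order was turned in control, where JAG1 was at 7.29 ± 0.226 TPM and NOTCH2 at 8.99 ± 0.125 TPM. NOTCH3 was lowest in both groups, at 4.69 ± 0.05 TPM in knockdown and 3.77 ± 0.309 TPM in control. TPM of the 3 receptors summed to between 25.9 and 27.1 in knockdown libraries and between 27.1 and 28.4 in control libraries. The 3 ligands summed to between 47.9 and 49.8 TPM in knockdown libraries and between 45.9 and 49.7 TPM in control libraries. The 4 effectors summed to between 142 and 154 TPM in knockdown libraries and between 146 and 176 TPM in control libraries, mostly from HES4. On log2(TPM + 1) the median of all genes was -0.16, against -0.01 with TMM, so these sums do not by themselves give a direction between groups. After TMM the mean CPM of NOTCH1, NOTCH2 and NOTCH3 was 93.7, 61.4 and 29.4 in knockdown and 84.6, 66.2 and 20.8 in control.

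**Figure D4:**
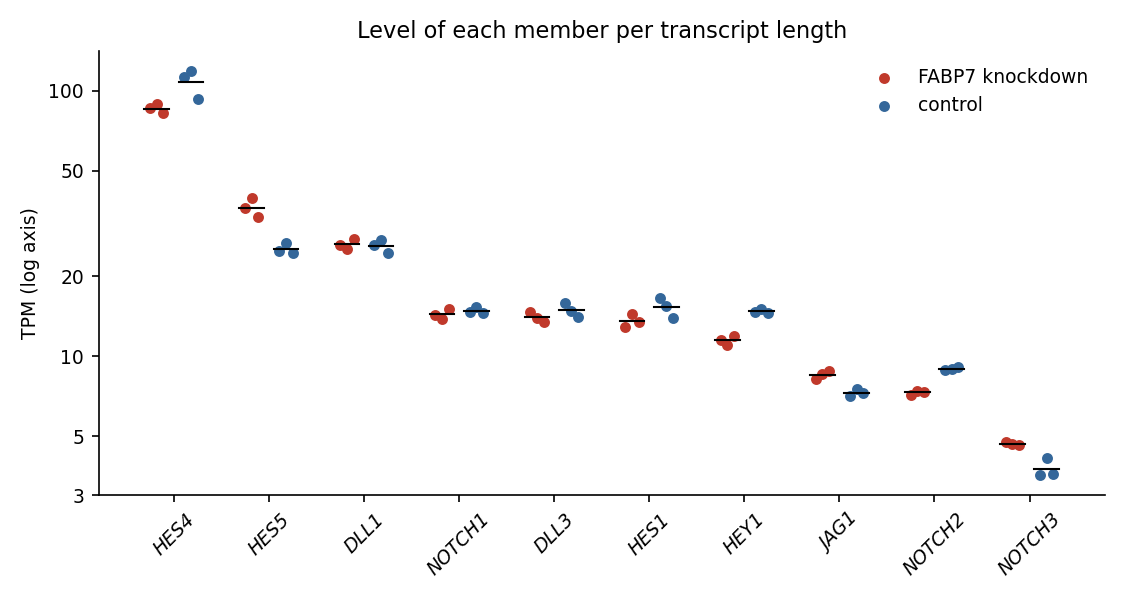
TPM (log axis) of each member in the 3 FABP7 knockdown libraries (red) and the 3 control libraries (blue), with group means as black lines, ordered by the knockdown mean. HES4 is highest and NOTCH3 lowest in both groups, and HES5 stands above DLL1 in knockdown libraries.

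Other genes of the pathway were read from lists chosen for their roles. Over all genes tested, 26.4% were higher and 25.3% lower with TMM. On library totals 52.3% of all genes were called, 37.7% of them higher. On log2(TPM + 1) 57.8% were called, 20.6% of them higher. In this and the following lists, counts near these shares are not results about the list. Among other receptors and ligands 3 of 10 tested genes were higher and 2 lower, and the median difference was -0.05 (log2). On library totals and on log2(TPM + 1) it was 1 higher and 4 lower, with medians of -0.11 and -0.19. Beside the NOTCH2 copies these were CNTN1, an axonal adhesion protein that can bind Notch, which fell by 0.78, and DNER, a neuronal transmembrane ligand, which fell by 0.21. JAG2 (-0.15), DLL4 (-0.30) and NOTCH4 (0.07) did not pass the test with TMM. JAG2 was called lower on library totals at -0.22 (edgeR adjusted p = 0.0193) and on log2(TPM + 1) at -0.25 (limma adjusted p = 0.0121). EGFL7 and NOTCH2NLR were too low to test, and CNTN6 was not found by symbol among the 17504 genes.

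Of the enzymes that put sugars on Notch, 2 of 10 tested were higher and 2 lower, with a median of 0.02 that turned to -0.05 on library totals and -0.12 on log2(TPM + 1). POGLUT3 and POGLUT2, O-glucosyltransferases of EGF repeats, rose by 0.81 and 0.55. EOGT, which adds N-acetylglucosamine to EGF repeats, fell by 0.98, and POGLUT1, which glucosylates Notch, fell by 0.33. LFNG, MFNG and RFNG, the Fringe enzymes that tune the choice of ligand, did not pass the test, with log2 fold changes of 0.08, 0.07 and 0.00.

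Proteases that cut the receptor had 4 of 9 higher and none lower, with a median of 0.12. APH1A, a gamma-secretase subunit, stood at 113 ± 1.68 TPM in knockdown and 89.7 ± 2.54 TPM in control (SD, n = 3 each) and rose by 0.53 on the log2 scale (edgeR adjusted p = 1.38e-09), against a median of 0.06 over 138 tested genes within 5 Mb. The calls of PSENEN (0.21), NCSTN (0.15) and ADAM17 (0.12) were lost on library totals and on log2(TPM + 1). On library totals 1 gene of the list was higher and 1 lower (median 0.05). On log2(TPM + 1) 1 was higher and 3 were lower, and the median turned to -0.06.

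Ubiquitin ligases and endocytic regulators had 3 of 18 tested genes higher and 8 lower, with a median of -0.12. Under library totals these were 3 higher and 10 lower (median -0.19), and under log2(TPM + 1) 2 higher and 13 lower (median -0.27). NEDD4, a ligase that acts on Notch, rose by 1.65 (log2) and stood at 5.06 ± 0.297 TPM in knockdown, against 1.82 ± 0.310 TPM in control. MIB2, a ligase that helps ligands enter cells, fell by 0.49, in a stretch of chromosome 1 whose 78 tested genes within 5 Mb had a median of -0.50. AAK1, an endocytic kinase, fell by 0.38 and NEURL1, a ligase of Notch ligands, by 0.92. NUMB, the endocytic antagonist of Notch, and ITCH, a ligase, were not among the leading 4 by p, and rose by 0.32 and 0.18, though the call of ITCH was lost on log2(TPM + 1). MIB1, the main ligase of Delta ligands, did not pass the test with TMM at -0.08. It was called lower on library totals at -0.15 (edgeR adjusted p = 0.00553) and on log2(TPM + 1) at -0.26 (limma adjusted p = 0.00151).

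In the RBPJ complex 6 of 22 tested genes were higher and 9 lower, with a median of -0.12. On library totals 2 were higher and 11 lower (median -0.18), and on log2(TPM + 1) none of 21 was higher and 12 were lower (median -0.28). RBPJ rose by 0.16 (edgeR adjusted p = 0.0027), a call lost on library totals (0.09) and turned to -0.03 on log2(TPM + 1). The leading falls were in corepressors: SPEN by 0.70, the histone demethylase KDM1A by 0.58, TLE1 by 0.73 and TLE4 by 0.48. SPEN and KDM1A lie on chromosome 1 among genes with medians of -0.52 and -0.45. MAML1, MAML2 and MAML3, the Mastermind coactivators, had log2 fold changes of 0.17, -0.12 and -0.42, of which that of MAML3 passed the test under each scaling. MAML1 passed it with TMM but not on library totals (0.10) or log2(TPM + 1) (-0.02).

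Among other HES and HEY genes and other known targets, 3 of 12 tested were higher and 4 lower, FABP7 included, and the median was -0.08. Library totals gave 2 higher and 5 lower (median -0.14), and log2(TPM + 1) gave 2 higher and 5 lower of 10 (median -0.17). NRARP, a Notch target that feeds back on the pathway, had 27.4, 27.5 and 29.0 CPM in knockdown libraries, against 22.6, 21.4 and 17.8 CPM in control libraries. It rose by 0.44 ± 0.08 (SE, edgeR adjusted p = 0.000101), with no overlap between groups. HES6, which opposes HES1 and promotes neurogenesis, rose by 0.38. ID2, an inhibitor of basic helix-loop-helix factors, fell by 0.58. HES7 stood at 0.683 ± 0.170 TPM in knockdown and 1.16 ± 0.294 TPM in control and fell by 0.61. HEYL, HES2, HES3, HELT and GFAP were too low to test.

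**Figure D5:**
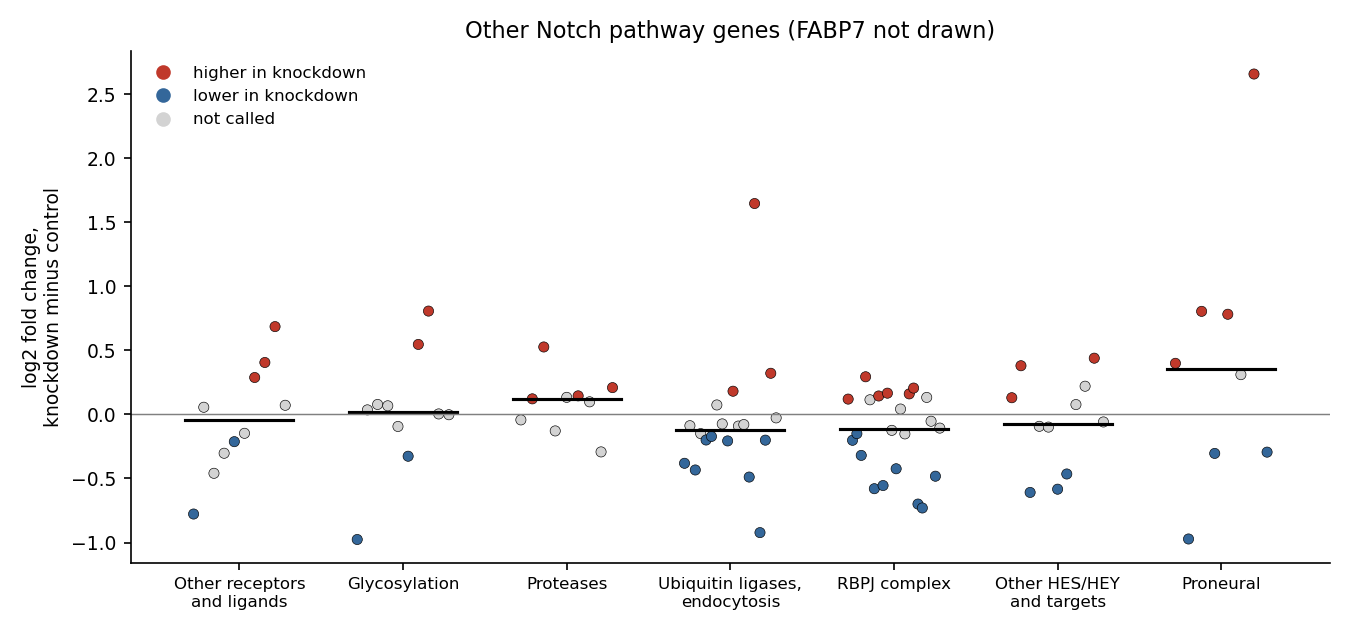
Log2 fold change, knockdown minus control, of each tested gene in 7 lists of other Notch pathway genes (red higher, blue lower, grey not called), with each list's median as a black line and FABP7 left out of the drawing. Points lie on both sides of 0 in every list, with NEUROD6 at 2.66 and NEDD4 at 1.65 the highest.

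Proneural genes, which HES proteins repress, had 4 of 8 tested higher and 3 lower, with a median of 0.36. NEUROD6, EOMES and NEUROD1 rose by 2.66, 0.81 and 0.78 but were at or under 1.96 TPM on average in knockdown. BTG2, INSM1 and NEUROG2 fell by 0.97, 0.30 and 0.29, BTG2 in a stretch of chromosome 1 whose 69 tested genes had a median of -0.49.

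Markers of cell states moved alongside the members. All 10 markers of dividing cells rose under each scaling, by a median of 1.01 (log2) with TMM, and their TPM summed to between 798 and 840 in knockdown libraries and between 442 and 464 in control libraries. The most abundant were CDK1, the mitotic kinase, at 170 ± 11.7 TPM in knockdown and 84.0 ± 4.74 TPM in control, and TOP2A, a topoisomerase, at 159 ± 5.24 TPM in knockdown and 82.1 ± 5.69 TPM in control (SD, n = 3 each). Of 12 neuron markers 11 fell, with a median of -0.56, and they summed to between 2271 and 2310 TPM in knockdown libraries and between 3433 and 3529 TPM in control libraries, led by STMN2 and TUBB3. Of 16 radial glia and progenitor markers, which include FABP7 and HES1, 3 rose and 7 fell, against 2 and 8 on library totals and 3 and 10 on log2(TPM + 1). The most abundant were VIM, an intermediate filament protein, at 730 ± 22.1 TPM in knockdown and 885 ± 23.4 TPM in control, and FABP7. The log2 fold change of VIM was -0.10 with TMM (edgeR adjusted p = 0.0484). On log2(TPM + 1) it was -0.28, a scale on which the median of all genes was -0.16. Endothelial markers summed to at most 0.79 TPM in knockdown libraries and at most 1.29 TPM in control libraries over 8 genes, with PECAM1 and CDH5 at or under 0.03 TPM in every library. Choroid plexus markers summed to between 18.3 and 19.7 TPM in knockdown libraries and between 24.7 and 25.8 TPM in control libraries, mostly from OTX2 and FOXJ1, while TTR was at or under 0.55 TPM. Markers of pluripotent and mesenchymal cells summed to between 13.1 and 15.7 TPM and between 6.54 and 6.93 TPM in knockdown libraries, and to between 17.0 and 18.5 TPM and between 3.91 and 4.49 TPM in control libraries, led by DPPA4 and NANOG and by LUM and COL1A2. Those of endoderm, muscle and immune cells summed to between 65.1 and 68.3 TPM in knockdown libraries and between 21.5 and 24.3 TPM in control libraries, led by AIF1 and CD68, with PTPRC at or under 0.03 TPM. The part of these cell types in the values of the Notch members was not tested.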

How the data were processed

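Bulk RNA libraries of day 30 brain organoids, 3 of FABP7 knockdown and 3 of control, were analysed. The 2 single-cell libraries were not analysed here. Per the file headers, the authors' deposited table held estimated counts per gene beside TPM, FPKM and a normalized signal scaled by 1 factor per library. The submitters' processing notes name hg38. Which aligner, counter or annotation served is not given in the sources used here. The authors' FPKM, normalized signal and averages entered no test. Every column of per-sample values was mapped to a sample.

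Expected counts, of which 12.6 to 14.9% per library were not whole, were rounded. Tests used edgeR 4.0.16 under R 4.3.3, with TMM factors, filterByExpr (minimum count 10, minimum total 15), a robust quasi-likelihood F-test and Benjamini-Hochberg adjustment over all genes at 0.05. Standard errors were the log2 fold change divided by the root of F. A test against 1.5-fold used glmTreat. A floor of 3 counts equals 0.191 to 0.223 CPM. On simulated counts of 13379 genes the test recovered 62% of genes changed 1.2-fold and 94% of those changed 2-fold, with 7 false calls among 175. The simulation changed only 49 or 50 genes at each fold of 1.2, 1.5, 2 and 3, with the same dispersion for every gene. In the data 51.7% of genes were called, so these rates do not carry over to this comparison. Alternatives used DESeq2 1.42.0, limma 3.58.1, other scalings and filters, a replicate block, and 1 library left out in turn.

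Gene positions and promoters came from RefSeq on GRCh38.p14. Members and lists were chosen with earlier results of these data known. Genes were named by rule: the members, FABP7, up to 4 called genes of each pathway list by smallest p, all where 5 or fewer were called, and the 2 most abundant markers of each cell type. SOX2, HES7, NEUROD1, EOMES, NEUROG2, ESPN, LOC124905421, JAG2, DLL4, NOTCH4, the Fringe genes, NUMB, ITCH, MIB1, RBPJ, the MAML genes, CSPG4, ACTA2, DES, PECAM1, CDH5, TTR, PTPRC and FAM120B were named beyond that rule, after their values were seen. Some genes of these lists are not reported here by name.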

Additional observations from a re-analysis of the deposited data

How the results depend on the processing

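Over 14 alternatives for each of the 10 members, 119 of 140 values kept their direction and their side of the threshold. HES5 ranged from 0.50 to 0.76, NOTCH3 from 0.26 to 0.56 and JAG1 from 0.20 to 0.44 on the log2 scale, called in each. On library totals 3 members were higher and 3 lower, as on log2(TPM + 1), where HES4 was called lower at -0.32 and 1475 genes were called higher and 5694 lower, against 3557 and 3409 with TMM. With at least 10 CPM in 3 libraries 2 members were lower and 406 genes passed 1.5-fold, against 631. Leaving out 1 library gave 4 to 6 members called, 4 to 5 higher and 0 to 1 lower. The sign of HES1 turned on library totals (-0.060), with at least 10 CPM (-0.013) and on log2(TPM + 1) (-0.15). Leaving out 1 library gave HES1 values from -0.062 to 0.081, below 0 without knockdown replicate 2 (-0.037) or control replicate 3. On log2(TPM + 1) NOTCH1 (-0.042) and DLL3 (-0.083) also turned. Of genes called, 51.1% were higher with TMM, 37.7% on library totals and 20.6% on log2(TPM + 1). The cause was not tested. The replicate block called 7114 genes and the same number of members, 5. Same-numbered libraries deviated together at correlations of 0.02 to 0.08 across genes, so the numbers were not taken to pair samples. At these depths a change of HES1 under about 0.2 on the log2 scale is within its interval.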

Other observations

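Within each library the TPM ratio of NOTCH3 to NOTCH2 was 0.661, 0.633 and 0.630 in knockdown replicates 1, 2 and 3 and 0.403, 0.461 and 0.395 in control replicates. The ratio of JAG1 to DLL1 was 0.314, 0.339 and 0.319 in knockdown libraries and 0.270, 0.276 and 0.296 in control libraries. Neither pair of groups overlapped. The ratio of HES4 to HES1 was 6.66, 6.15 and 6.12 in knockdown libraries and 6.81, 7.71 and 6.67 in control libraries, a small gap with no overlap. These ratios were chosen after the values were seen, no library factor changes them, and they were not tested.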
